A study of Mus musculus with 2 samples.

Results

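The BCL2 family governs cell death at the mitochondrion, and 10 of its genes were followed here out of 24532 gene IDs in the tables. They were taken from a fixed list of symbols and matched by mouse gene ID: the pro-survival genes Bcl2, Bcl2l1, Mcl1 and Bcl2l2, the BH3-only genes Bcl2l11, Bmf, Bad and Bbc3, and the effectors Bax and Bak1. All 10 were matched, and all 10 had at least 1 TPM (transcript abundance per length, scaled to the same total in each library) in both libraries. RNA was measured in 2 libraries of sorted CD69+ double-positive (DP) thymocytes of C57BL/6 mice aged 6 weeks, the T cell precursors that carry both CD4 and CD8 and display CD69, a sign of recent signalling through the T cell receptor. One library is labelled KO and has the genotype NSRP1f/fCD4Cre, in which CD4-Cre, active from the DP stage onward, acts on floxed alleles of Nsrp1. The other is labelled wild type and has the genotype NSRP1f/f, so that both libraries carry the floxed alleles and Cre is in the KO genotype alone, and the labels do not give the number of mice per library. NSrp70, the protein made from Nsrp1, sits in nuclear speckles and takes part in the choice of splice sites. The comparison asks which genes differ between these thymocytes.

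Pro-survival proteins of the family hold the effectors Bax and Bak in check. BH3-only proteins, named for the short BH3 helix that they share with the rest of the family, bind the groove of the pro-survival proteins or act on the effectors, and freed effectors permeabilise the outer mitochondrial membrane so that cytochrome c escapes and caspases start. In the thymus, Mcl-1 and Bcl-xL (from Bcl2l1) keep DP cells alive, Bcl-2 is low in DP cells and returns after positive selection, and Bim (from Bcl2l11) is the chief BH3-only protein in the deletion of self-reactive cells.

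The BH3 core is the sequence that the 10 proteins have in common, and its codons are shown because they place the part of each gene that codes for the shared helix. It was searched in the coding sequence of 1 GENCODE M21 transcript a gene (GRCm38) as a leucine or methionine, any 3 residues, a glycine, alanine or serine, an aspartate, and then an aspartate, glutamate, glycine or glutamine. This pattern occurred once in each of the 10, against 11.9% of 21849 protein-coding genes with at least 1 match anywhere in their longest coding sequence, so a match alone is a description and not a BH3 domain. The residues that the pattern allows are those that the 10 windows hold, so a match in all 10 is not a result. Each window of 27 bases below is written 5′ to 3′ on the strand of the gene, and capitals mark the codon of the leucine or methionine and the pair of codons for the small residue and the aspartate. The pro-survival genes all have a glycine codon before the aspartate.
Bcl2, chr1:106712578-106712604, minus strand: accCTCcgccgggctGGGGATgacttc
Bcl2l1, chr2:152829700-152829726, minus strand: gcgCTGagagaggcaGGCGATgagttt
Mcl1, chr3:95659433-95659459, plus strand: accCTGcggcgcgtgGGCGACggcgtg
Bcl2l2, chr14:54884514-54884540, plus strand: gccATGcgggctgctGGAGACgagttt
The BH3-only and effector windows have the same spacing, with alanine or serine codons in place of glycine in Bmf, Bad and Bbc3.
Bcl2l11, chr2:128147147-128147173, plus strand: gagCTGcggcggatcGGAGACgagttc
Bmf, chr2:118545103-118545129, minus strand: aagCTTcagtgtattGCAGACcagttc
Bad, chr19:6950789-6950815, plus strand: gagCTCcgaaggatgAGCGATgagttt
Bbc3, chr7:16313770-16313796, plus strand: cagCTGcggcggatgGCGGACgacctc
Bax, chr7:45466000-45466026, minus strand: tgtCTCcggcgaattGGAGATgaactg
Bak1, chr17:27022534-27022560, minus strand: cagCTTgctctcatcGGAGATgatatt
The last sequence is the optional coding segment of Bim, from chr2:128128757-128128924 on the plus strand, with 168 bases in capitals between 15 bases of each neighbouring part of the exon in lower case. It is shown because it alone separates the mRNA of the long form BimEL, which keeps it, from that of BimL, which lacks it.
Bcl2l11 optional segment: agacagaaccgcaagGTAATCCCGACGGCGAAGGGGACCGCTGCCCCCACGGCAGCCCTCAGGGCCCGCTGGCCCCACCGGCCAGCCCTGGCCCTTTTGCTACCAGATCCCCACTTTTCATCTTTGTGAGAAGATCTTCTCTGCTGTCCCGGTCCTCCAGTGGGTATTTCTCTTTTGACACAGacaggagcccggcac

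The libraries were sequenced to a similar depth, with 5076 megabases of exon coverage in the KO-labelled library and 4199 megabases in the wild-type-labelled library, from which read pairs were estimated. Each genotype has 1 library, so differences have no replicate check, no test was made, and the 95% intervals (exact Poisson for a level, exact binomial for a ratio) cover counting error only. Nsrp1 stood at 29.6 TPM (27.9 to 31.5) in the KO-labelled library and at 29.7 TPM (27.7 to 31.9) in the wild-type-labelled library, intervals that overlap, so the deletion in the label was not seen in the level of the whole gene. Single exons of Nsrp1 are not reported here. Directions below are between the libraries as labelled and cannot be assigned to a change in the level of Nsrp1 RNA. The DP markers were high in both, with a sum over 8 genes of 4824 TPM in the KO-labelled library and 4502 TPM in the wild-type-labelled library. Markers of other cell types were also present. In the KO-labelled and wild-type-labelled libraries they summed to 248 and 340 TPM over 6 myeloid and dendritic cell markers, of which Cd74 alone held 148 and 199 TPM, 62.1 and 53.6 TPM over 5 B cell markers, 70.8 and 56.2 TPM over 4 natural killer cell markers, 8.74 and 7.36 TPM over 6 stromal markers, of which Foxn1, Krt5, Krt8 and Pdgfra were listed at 0, and 1.17 and 0.846 TPM over 4 erythroid markers. Their part in the levels of the members was not tested. Xist was at 76.3 and 202 TPM in the libraries labelled KO and wild-type, and the Y-linked Ddx3y at 71.2 and 31.1 TPM. Both genes were thus present in each library, at different levels, so genotype and the mix of sexes among the cells cannot be told apart.

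The BH3-only gene Bmf showed the largest log2 fold change in size among the 10, and it was lower in the KO-labelled library. By the rule of size used throughout, a log2 fold change of 1 or more on log2(TPM + 1), 0 of 10 members were called in either direction, against 2.03% of the 12029 genes that reached 1 TPM in either library (0.657% higher and 1.37% lower in the KO-labelled library). The median log2 fold change of the members was -0.07, the same to 2 decimals as the median of -0.07 over those 12029 genes. At a smaller size of 0.25, Bcl2l1 and Bad were past the line on the higher side, beside 9.85% of all genes, and Bcl2l2 and Bmf on the lower side, beside 23.7%, which makes 33.5% of all genes for both sides. At 0.5 Bmf alone was past it on the lower side, beside 6.42% of all genes, and 0 members on the higher side, beside 3.37%, or 9.78% for both sides. The order of levels, from Mcl1 at the top to Bcl2l2 at the bottom, had the same end members in both libraries. In bulk RNA, fewer cells of a type and less RNA per cell cannot be told apart.

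**Figure D1:**
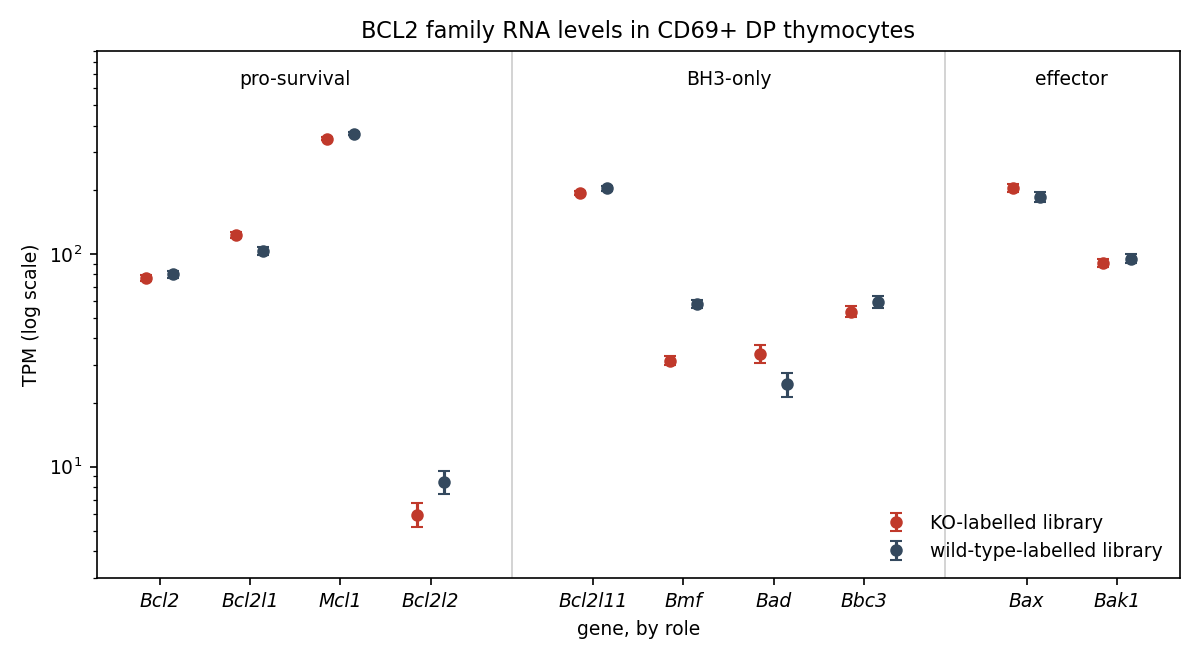
Levels of the 10 members in TPM on a log scale, grouped by role, with the KO-labelled library (red) left of the wild-type-labelled library (dark blue) and bars for the 95% Poisson interval of counting error. Mcl1 lies highest at 347 and 367 TPM, Bcl2l2 lowest at 5.92 and 8.45 TPM, and the widest gap is that of Bmf, at 31.4 and 57.9 TPM.

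Among the pro-survival genes, Mcl1 was by far the most abundant. Mcl1, which encodes a short-lived protein that binds Bim and Bak (chromosome 3, 95658721 to 95663178, plus strand, mm10), stood at 347 TPM (341 to 353) in the KO-labelled library and at 367 TPM (360 to 374) in the wild-type-labelled library, intervals that do not overlap. Its ratio was 0.945 (0.921 to 0.969) and its log2 fold change -0.08, close to the all-gene median, and its sign turned with FPKM in place of TPM and after centring by transcript length. Mcl1 made up 62.8% of the summed pro-survival TPM in the KO-labelled library and 65.7% in the wild-type-labelled library.

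Bcl2l1 had more RNA in the KO-labelled library, and its sign held under the other pseudocount, FPKM, median rescaling, centring by length and without the terminal exon. Bcl2l1, source of Bcl-xL (chromosome 2, 152758732 to 152831728, minus strand), reached 123 TPM (119 to 127) in the KO-labelled library, against 103 TPM (98.7 to 107) in the wild-type-labelled library. The ratio was 1.19 (1.13 to 1.26) and the log2 fold change 0.25, a value that 9.56% of all genes exceeded. Bcl2, the founding member (chromosome 1, 106538176 to 106714290, minus strand), was at 76.9 TPM (74.5 to 79.4) in the KO-labelled library and at 79.9 TPM (77.2 to 82.8) in the wild-type-labelled library, intervals that overlap. Its ratio was 0.962 (0.918 to 1.01), and the sign of its log2 fold change, -0.05, turned with FPKM and with median rescaling. Bcl2l1 was thus present at 1.60 times the level of Bcl2 in the KO-labelled library and at 1.29 times in the wild-type-labelled library.

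Bcl2l2, which encodes Bcl-w (chromosome 14, 54883425 to 54888234, plus strand), was the least abundant member. It stood at 5.92 TPM (5.18 to 6.74) in the KO-labelled library and at 8.45 TPM (7.44 to 9.56) in the wild-type-labelled library, with a ratio of 0.700 (0.583 to 0.841) from 228 and 253 estimated read pairs. The intervals of the levels do not overlap. Gm20521, annotated on the same strand, shares 15.8% of the 50-base words of the Bcl2l2 transcript. It overlaps exon segments 1, 2 and 3, where reads of the pair cannot be told apart and the depth is uncertain. The terminal exon lies outside the overlap. It held 195 and 215 estimated read pairs in the libraries labelled KO and wild-type, with a ratio of 0.702 (0.575 to 0.856). Summed over the 4 pro-survival genes, the level was 552 TPM in the KO-labelled library and 558 TPM in the wild-type-labelled library.

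Among the BH3-only genes, Bmf had the lowest log2 fold change of all 10 members, while Bcl2l11 made up most of the RNA of this group. Bmf encodes a BH3-only protein that is held at the actin cytoskeleton through a dynein light chain until cells are stressed (chromosome 2, 118528757 to 118549686, minus strand). Bmf stood at 31.4 TPM (29.9 to 33.0) in the KO-labelled library, against 57.9 TPM (55.6 to 60.4) in the wild-type-labelled library, and these intervals lie far apart. The level was 1.84-fold lower (1.73 to 1.97), with a log2 fold change of -0.86. Among all genes, 1.83% had a lower value.

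The difference in Bmf was seen in each part of the gene with enough reads. The 4 of 8 exon segments with at least 20 estimated read pairs in both libraries had depth ratios between 0.393 and 0.551, each with an interval below 1. The other 4 held too few read pairs for a direction, with ratios from 0.655 to 1.19 and intervals that include 1. The window with the BH3 codons lies in a segment with a ratio of 0.539 (0.378 to 0.765). Without the 3′ terminal exon, which holds most of the read pairs, the ratio was 0.467 (0.384 to 0.568) and the log2 fold change -1.04, past the rule of size. Under that setting 125 of 11286 genes were past the rule on the lower side, and the all-gene median was -0.14. Centred on genes of like transcript length, the log2 fold change of Bmf was -0.68. Bmf passed the rule under 1 of the 5 alternatives that could move it and had the same sign in all 5.

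Bmf took 10.1% of the summed BH3-only TPM in the KO-labelled library and 16.8% in the wild-type-labelled library. Other genes with lower levels in the KO-labelled library included markers of mature T cells, 2 of 6 of which passed the rule, Klf2 with 19.3 and 41.5 TPM and S1pr1 with 3.61 and 8.28 TPM in the libraries labelled KO and wild-type. The sum of the 6 mature T cell markers was 767 TPM in the KO-labelled library and 858 TPM in the wild-type-labelled library, and the sum of the myeloid and dendritic cell markers was also lower in the KO-labelled library. The part of these cells in the Bmf level was not tested.

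Bcl2l11, source of Bim (chromosome 2, 128126038 to 128162547, plus strand), was the most abundant BH3-only gene in both libraries. It stood at 193 TPM (189 to 197) in the KO-labelled library and at 203 TPM (198 to 207) in the wild-type-labelled library, a ratio of 0.953 (0.925 to 0.982), and the intervals of the levels do not overlap. Its log2 fold change of -0.07 equalled the all-gene median to 2 decimals, and its sign turned with FPKM and after centring by transcript length. Bcl2l11 held 61.9% of the BH3-only TPM in the KO-labelled library and 58.9% in the wild-type-labelled library.

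Bad went the other way from Bmf, on far fewer reads. Bad encodes a BH3-only protein that survival signals keep inactive by phosphorylation and binding to 14-3-3 proteins (chromosome 19, 6941861 to 6951905, plus strand). Bad stood at 33.9 TPM (30.6 to 37.4) in the KO-labelled library and at 24.3 TPM (21.3 to 27.6) in the wild-type-labelled library, from 397 and 237 estimated read pairs. The intervals do not overlap, the ratio was 1.39 (1.18 to 1.64) and the log2 fold change 0.46. Without the terminal exon the ratio was 1.15 (0.915 to 1.45), an interval that includes 1. Gpr137, on the opposite strand, overlaps 34.0% of the exonic bases of Bad, all within its first 580-base exon segment, and stood at 14.1 TPM in the KO-labelled library and 15.4 TPM in the wild-type-labelled library.

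Bbc3, which encodes PUMA, a BH3-only protein induced by p53 (chromosome 7, 16309583 to 16318334, plus strand), differed little. It was at 53.4 TPM (50.4 to 56.6) in the KO-labelled library and at 59.3 TPM (55.7 to 63.0) in the wild-type-labelled library. These intervals overlap, while the interval of its ratio, 0.901 (0.828 to 0.981), lies below 1. The 4 BH3-only genes summed to 312 TPM in the KO-labelled library and 344 TPM in the wild-type-labelled library, which is 0.565 and 0.617 of the pro-survival sum of the same library.

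The effectors, which form the pores of the outer mitochondrial membrane, were close in both libraries at the level of the whole gene. Bax (chromosome 7, 45461695 to 45466898, minus strand) was at 204 TPM (195 to 213) in the KO-labelled library and at 186 TPM (176 to 196) in the wild-type-labelled library, with a ratio of 1.10 (1.02 to 1.18). Bak1 (chromosome 17, 27019812 to 27028626, minus strand) was at 90.6 TPM (86.7 to 94.7) in the KO-labelled library and at 95.0 TPM (90.4 to 99.7) in the wild-type-labelled library, a ratio of 0.954 (0.894 to 1.02). In both genes the intervals of the levels overlap, while the interval of the ratio lies above 1 for Bax and includes 1 for Bak1. Without the terminal exon the ratio of Bak1 was 0.864 (0.787 to 0.948), an interval below 1, and that of Bax was 1.08 (1.005 to 1.17). Bax was present at 2.25 times the level of Bak1 in the KO-labelled library and at 1.95 times in the wild-type-labelled library, and the pair summed to 294 and 280 TPM in the same order of libraries. Both values are uncertain, since the Bax transcript shares 17.6% of its 50-base words with Gm45808 and the Bak1 transcript 18.2% with Ggnbp1, which was listed at 2.14 TPM in the KO-labelled library and 2.20 TPM in the wild-type-labelled library.

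**Figure D2:**
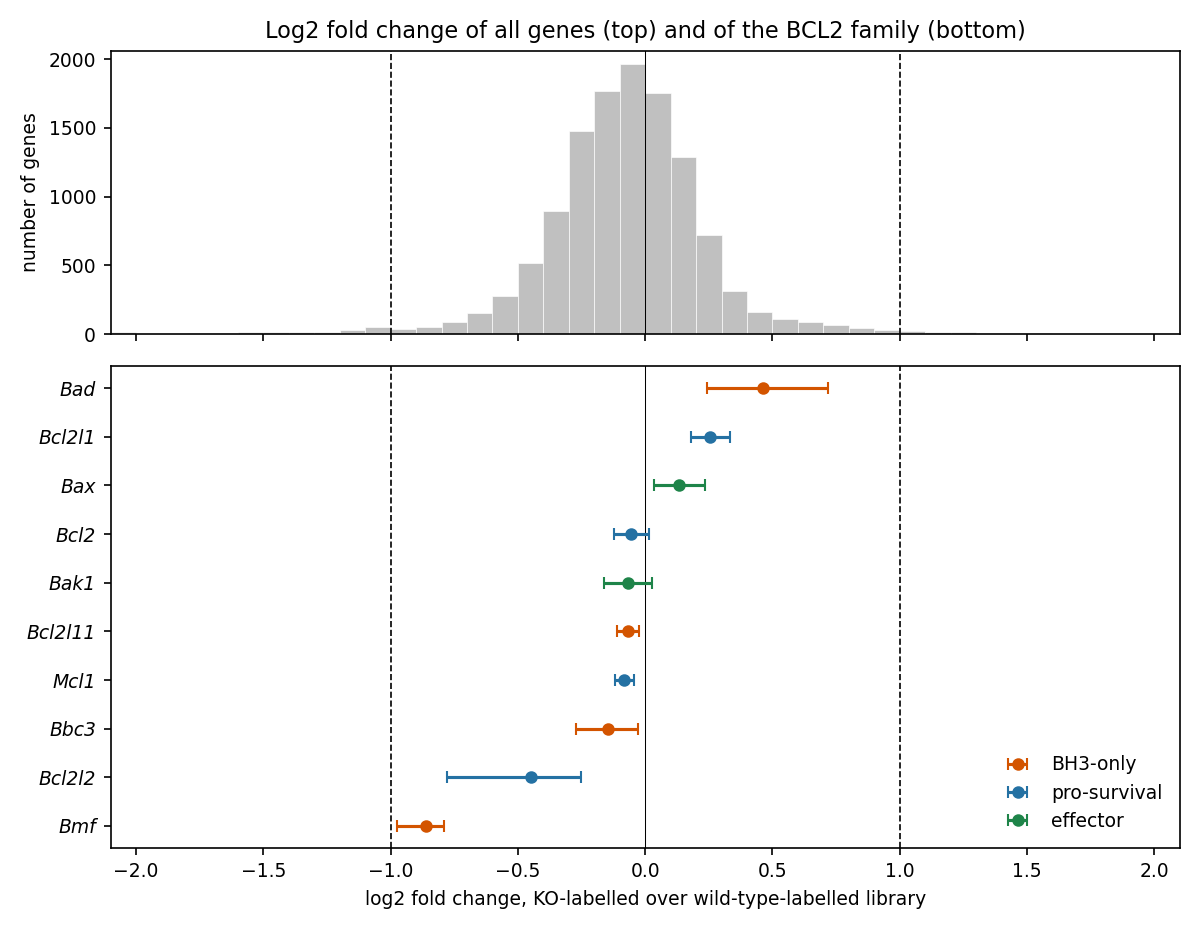
Log2 fold change, KO-labelled library over wild-type-labelled library, as a count of genes per bin over all 12029 genes (top, values past 2 in size gathered at the edges) and for each member (bottom, coloured by role, with bars for the binomial interval of the TPM ratio taken without the pseudocount). Dashed lines mark 1 in size: Bmf lies nearest to them at -0.86, Bad is highest at 0.46, and 5 members lie within 0.15 of 0 on the lower side.

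By the order of levels, most neighbours were further apart than counting error. In the KO-labelled library the order was Mcl1, Bax, Bcl2l11, Bcl2l1, Bak1, Bcl2, Bbc3, Bad, Bmf and Bcl2l2, and the intervals of Bax and Bcl2l11 and those of Bad and Bmf overlapped. In the wild-type-labelled library it was Mcl1, Bcl2l11, Bax, Bcl2l1, Bak1, Bcl2, Bbc3, Bmf, Bad and Bcl2l2, with overlap between Bcl2l1 and Bak1 and between Bbc3 and Bmf. Bmf and Bad changed places, as did Bax and Bcl2l11.

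NSrp70 is known as a splicing protein, so the transcripts of each member were compared as well. A transcript's share is its TPM as a percent of that of its gene, divided among transcripts by the authors' quantification. Of the 5 members with several annotated transcripts, Bcl2, Bcl2l1, Bcl2l11, Bmf and Bad, 0 had a share that moved by 25 percentage points or more, beside 6.63% of 3032 genes. At 10 points, 1 of the 5, Bad, was past the line, beside 27.7% of the same 3032 genes. Mcl1, Bcl2l2, Bbc3, Bax and Bak1 have 1 annotated transcript each in these tables, and forms such as a short Mcl-1 or Bcl-xS were not analysed here.

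Bim is made in forms that differ in toxicity: BimEL and BimL carry a binding site for dynein light chain, BimS lacks it and kills most strongly, and the segment that only BimEL has carries sites phosphorylated by ERK. BimL (NM_207681) was the largest share in both libraries, with 50.04% of Bcl2l11 TPM in the KO-labelled library and 42.6% in the wild-type-labelled library. BimEL (NM_207680) held 30.4% and 37.3%, and BimS (NM_009754) 2.35% and 5.29%, in the libraries labelled KO and wild-type. The remaining transcripts end in an alternative last exon of 1862 bases, and the larger of them, NM_001291016, held 14.5% in the KO-labelled library and 13.2% in the wild-type-labelled library.

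The printed optional segment was covered in both libraries. Scaled to TPM, its depth was 86.1 in the KO-labelled library and 115 in the wild-type-labelled library, a ratio of 0.748 (0.599 to 0.934). That is 51.6% and 52.8% of the depth of the 137 bases before it, and 45.1% and 50.9% of the depth of the 90 bases after it, with the KO-labelled library given before the wild-type-labelled library each time. It rests on 161 and 167 estimated read pairs, and the segment is found in 1 of the 5 annotated transcripts. Per-transcript shares and depth come from the same division of reads by the authors' software, so neither is an independent check of the other.

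**Figure D3:**
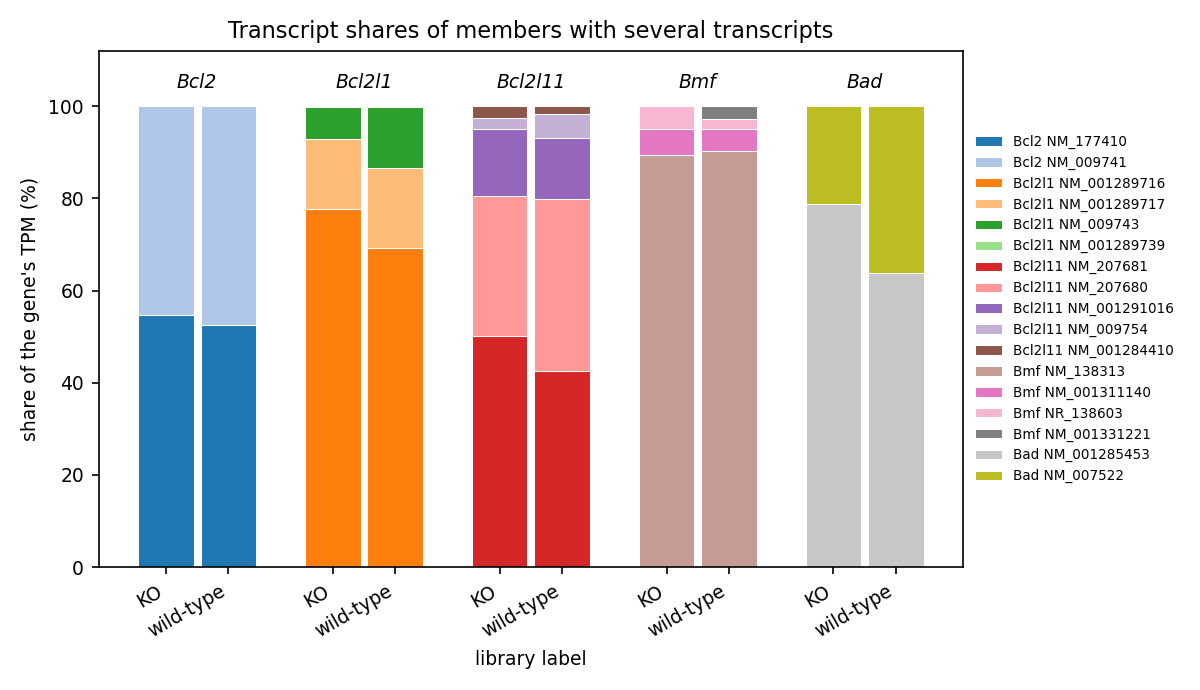
Share of each annotated transcript in the TPM of its gene, in percent, for the 5 members with several transcripts, with the bar of the KO-labelled library left of that of the wild-type-labelled library. The tallest part of each bar is the same transcript in both libraries, and the widest shift is that of Bad NM_001285453, at 78.9% and 63.8%.

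Bad had the widest shift of share, 15.04 points, with NM_001285453 at 78.9% in the KO-labelled library and 63.8% in the wild-type-labelled library. Its own first exon has 63 bases and held 3.81 and 1.46 estimated read pairs in those libraries, and the first exon of the other transcript, NM_007522, held 40.6 and 20.6, so the bases that tell the pair apart are thinly covered. In Bcl2l1, NM_001289716 held 77.6% in the KO-labelled library and 69.2% in the wild-type-labelled library, and NM_009743 6.90% and 13.2%. These transcripts share the large coding exon and the last exon and differ in their first exons. The 126-base first exon of NM_009743 held 1.90 estimated read pairs in the KO-labelled library and 1.75 in the wild-type-labelled library. The 332-base first exon of NM_001289716 held 51.4 and 32.6 in those libraries, so the bases that tell this pair apart are thinly covered as well. In Bcl2, the single-exon transcript NM_177410 held 54.6% in the KO-labelled library and 52.4% in the wild-type-labelled library. In Bmf, NM_138313 held 89.4% in the KO-labelled library and 90.2% in the wild-type-labelled library.

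The ratio of exon depth varied along some of the genes. In Bcl2l11 the first exon had a ratio of 0.657 (0.561 to 0.770), the exon with the BH3 codons 0.722 (0.608 to 0.858), and the last exon, with 4317 bases and most of the reads, 0.962 (0.930 to 0.995). The alternative last exon stood on the other side, at 1.18 (1.05 to 1.32). In Mcl1 the ratios were 0.809 (0.759 to 0.862), 0.941 (0.877 to 1.01) and 0.979 (0.950 to 1.01) from the first exon to the last, and the BH3 codons of Mcl1 lie in the first.

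Lower ratios outside the last exon were common in these libraries. The log2 ratio of the last exon of the most abundant transcript was set against that of all exons of the gene that do not overlap it. Exons 3′ of it, where annotated, were counted among these. Over 6787 genes with at least 100 estimated read pairs in both parts in both libraries, the first minus the second had a median of 0.20. The difference was above 0 in 86.0% of them. Of the 8 members that could be measured this way, 7 were above 0 and 3 above that median, Bad at 0.35, Bak1 at 0.29 and Bmf at 0.24. Mcl1, at 0.18, and Bcl2l11, at 0.16, lay just under it, and Bbc3, at -0.05, was the lowest. The value of Bcl2l11 counts its alternative last exon, with a ratio of 1.18 (1.05 to 1.32), among the exons outside the last. Its other segments 5′ of the last exon had ratios from 0.561 to 0.843. A value without the alternative last exon was not computed, so the place of Bcl2l11 beside the median is uncertain. Bcl2, whose most abundant transcript is a single exon, and Bcl2l2, with few reads, gave no value. The fold change also moved with transcript length across all genes, when genes were cut into 10 equal classes of length, with a median of 0.05 in the shortest class and -0.28 in the longest, and the class that holds Bmf and Bcl2l11 had a median of -0.18.

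**Figure D4:**
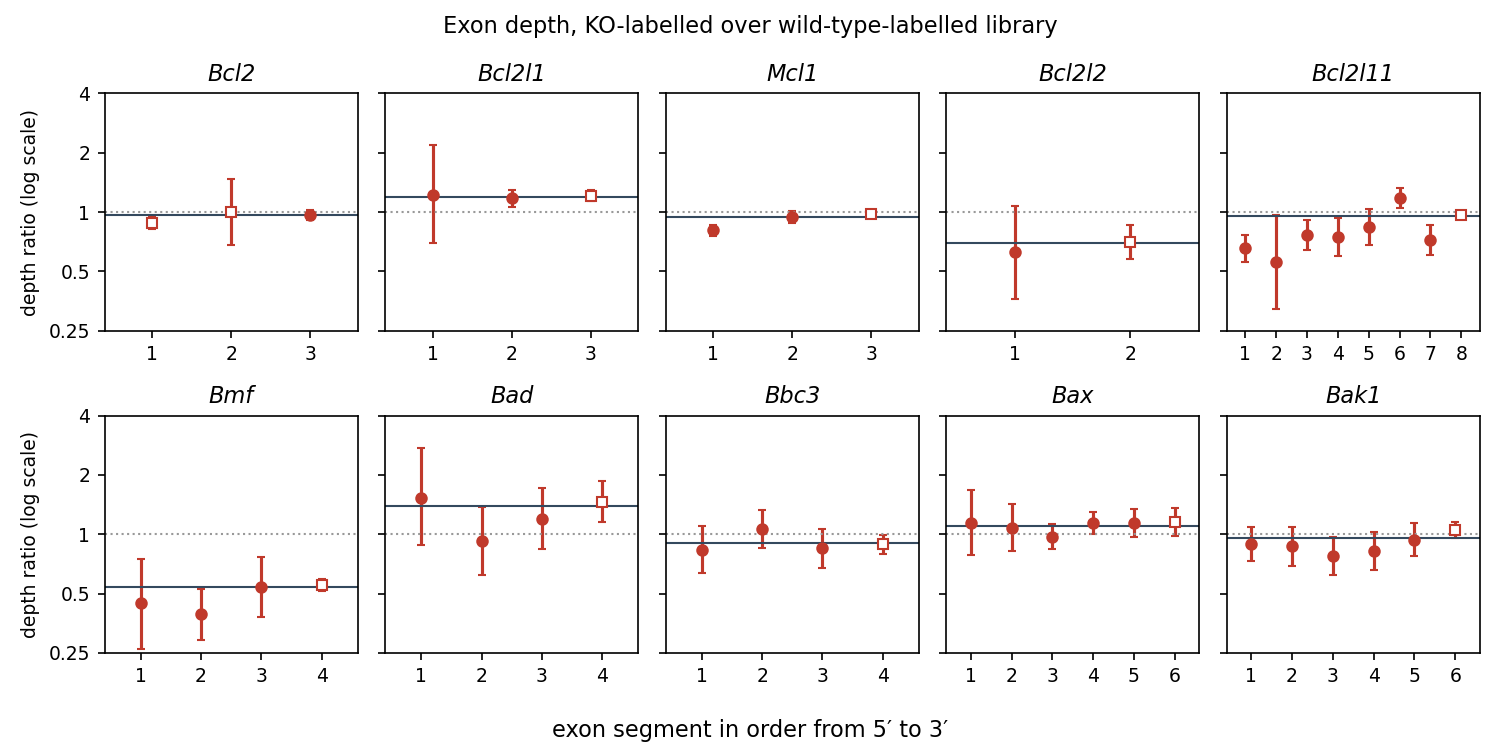
Ratio of depth per exon, KO-labelled over wild-type-labelled library, on a log scale, for each exon segment with at least 20 estimated read pairs in both libraries, in order from 5′ to 3′. Bars are binomial intervals, open squares mark the last exon of the most abundant transcript, the solid line is the ratio of the whole gene and the dotted line is 1: every Bmf segment lies between 0.393 and 0.551, and Bcl2l11 runs from 0.561 to 1.18.

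The log2 fold changes of the other genes of the family ran from -0.46 to 0.46. Of 15 further members of the family, 12 were measured, 0 of 12 passed the rule, which 2.03% of all genes passed, 6 were above 0 and 6 below, and their median was -0.02. The lowest was Bnip3, a BH3-like protein of mitophagy, with 6.35 TPM in the KO-labelled library and 9.12 TPM in the wild-type-labelled library. Next came Pmaip1, which encodes the Mcl-1 binder Noxa, with 5.49 and 7.08 TPM in those libraries. Highest were Bcl2l15, with 1.97 TPM in the KO-labelled library and 1.16 TPM in the wild-type-labelled library, from 18.7 and 19.8 estimated read pairs and with a sign that turned without the terminal exon, and Bcl2a1b with 19.2 and 14.7 TPM.

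Bcl2a1b is one of near-identical copies of the pro-survival gene A1, so its value and those of Bcl2a1a, at 4.77 and 3.94 TPM, and Bcl2a1d, at 17.8 and 15.5 TPM in the libraries labelled KO and wild-type, are uncertain. Bid, which links death receptors to mitochondria, was at 42.1 TPM in the KO-labelled library and 35.9 TPM in the wild-type-labelled library. Bik stood at 3.93 and 4.93 TPM, Bcl2l12 at 45.7 and 44.7 TPM, Bcl2l13 at 31.9 and 36.2 TPM, Bcl2l14 at 0.848 and 1.01 TPM, and Bnip3l at 127 and 134 TPM in the libraries labelled KO and wild-type. Bcl2l10 and Hrk were listed at 0 in both libraries, and Bok at 0.0283 TPM in the KO-labelled library and 0 in the wild-type-labelled library.

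The lists that follow are read beside all genes, of which 2.03% passed the rule and 7394 of 12029 were below 0. Downstream of the family, 0 of 16 genes of the mitochondrial death pathway passed the rule, 10 were above 0 and 6 below, and the median was 0.11. The highest were Endog, a mitochondrial nuclease, with 6.39 TPM in the KO-labelled library and 4.84 TPM in the wild-type-labelled library, and Cycs, which encodes cytochrome c, with 67.7 and 57.7 TPM. The lowest were Casp9, the initiator caspase of the apoptosome, with 9.02 TPM in the KO-labelled library and 11.3 TPM in the wild-type-labelled library, and Birc2, an inhibitor of apoptosis protein, with 79.1 and 93.8 TPM.

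Among 32 regulators and binding partners of the family, 31 were measured, 0 of 31 passed the rule, 9 were above 0 and 22 below, and the median was -0.09. Foxo3, a transcription factor that drives Bim and PUMA, was the lowest, with 29.7 TPM in the KO-labelled library and 45.1 TPM in the wild-type-labelled library. Huwe1, a ubiquitin ligase of Mcl-1, followed with 72.7 and 105 TPM. The highest was E2f1, a cell cycle transcription factor, with 11.8 TPM in the KO-labelled library and 7.36 TPM in the wild-type-labelled library, and then Ywhae, a 14-3-3 protein of the kind that holds Bad, with 509 and 441 TPM. A set of 8 cell cycle genes, picked after its values were seen, summed to 515 TPM in the KO-labelled library and 271 TPM in the wild-type-labelled library, and the part of dividing cells in any member's level was not tested.

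Of 19 splicing regulators linked to transcripts of the family, 0 passed the rule, 9 were above 0 and 10 below, and the median was -0.02. Tra2b, a splicing activator, was the highest, with 262 TPM in the KO-labelled library and 163 TPM in the wild-type-labelled library, a log2 fold change of 0.68 that was 0.02 without the terminal exon. Srsf2 followed with 419 and 370 TPM. Celf2 was the lowest, with 39.4 TPM in the KO-labelled library and 50.02 TPM in the wild-type-labelled library, and then Rbm10 with 97.2 and 111 TPM.

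**Figure D5:**
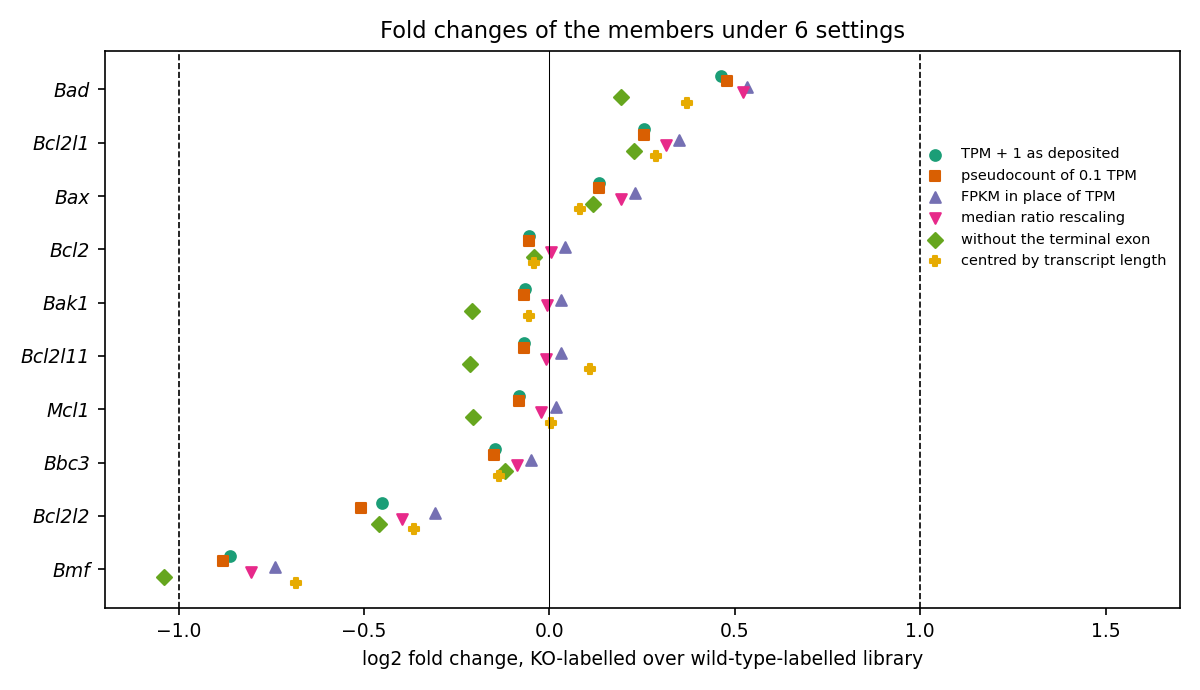
Log2 fold change of each member, KO-labelled library over wild-type-labelled library, with the deposited TPM and a pseudocount of 1 TPM and under 5 alternatives, 1 symbol each, with dashed lines at 1 in size. Bmf lies between -1.04 and -0.68 and Bad between 0.19 and 0.53 under all of them, while Bcl2, Mcl1, Bcl2l11 and Bak1 have values on both sides of 0. For Bcl2 the value without the terminal exon is that of the 3′ exon of its other transcript.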

How the data were processed

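RNA of 2 libraries was analysed, 1 per genotype, grouped by the labels. HISAT2 and the mouse build mm10 (GRCm38) are named, with no HISAT2 version, per the submitters' processing notes. RefSeq transcripts were quantified by the authors with StringTie 1.3.3b, per the file headers. The deposited values per gene and per transcript are TPM, FPKM and coverage (mean read depth per base), with coverage also per exon. Strand use in counting was not stated in those sources. Estimated read pairs are covered bases divided by 202 bases, since in transcripts with few reads, 26.4% of values in the KO-labelled library and 25.9% in the wild-type-labelled library lay within 2 bases of a multiple of 202, against 2.48% for an even spread. Of 24532 gene IDs, 24462 matched a RefSeq symbol. Values of an ID with several rows were summed. Fold changes are log2((TPM + 1) / (TPM + 1)), which understate changes of low genes, over genes that reached 1 TPM in either library. Transcript shares needed 10 TPM of the gene in each library. Overlapping exons were cut into segments, and depth was scaled by the TPM per unit of depth of each library.

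Named were all members, Nsrp1, all other family genes and, of each list with at least 5 measured genes, the 2 highest and 2 lowest and any past the rule. For the marker and cell cycle lists sums and a few genes are given, with the sex-linked genes added after their values were seen. The members and lists were chosen with earlier results of these data known. Alternatives were the pseudocount, FPKM, median rescaling, leaving out the terminal exon, centring by length, summed transcript TPM, and other filters and thresholds. Simulated read pairs, drawn with counting error only, served to check the computation of the fold rule and the intervals. They cannot show how far replicate libraries would differ. Scripts ran in Python 3.11.15 with scipy 1.17.1, pandas 2.3.3, numpy 2.4.6 and matplotlib 3.10.9.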

Additional observations from a re-analysis of the deposited data

How the results depend on the processing

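Against 79 genes higher and 165 lower in the KO-labelled library, a pseudocount of 0.1 TPM gave 139 higher and 305 lower, FPKM in place of TPM gave 51 and 50, and a filter of 5 TPM gave 46 and 83. Leaving out the terminal exon put 1 member, Bmf, past the lower side of the rule, against 0 with whole genes. Among all genes, 125 of 11286 were past the lower side and 63 past the higher side under that setting. A threshold of 10 points put 1 member, Bad, past the transcript share rule, beside 27.7% of 3032 genes. At 25 points it was 0 members, beside 6.63%. The causes of these shifts were not tested. The count of members higher in the KO-labelled library was 0 under each alternative. The summed transcript TPM gave the deposited gene value by construction. Under the 5 other alternatives the sign of Bcl2l1, Bcl2l2, Bmf, Bad, Bbc3 and Bax held, while Bcl2, Mcl1 and Bcl2l11 changed sign under 2 each and Bak1 under 1. The all-gene median of -0.07 moved as well, to 0.03 with FPKM, to -0.02 with median rescaling and to 0 after centring by length. Without the terminal exon the median of the other family genes was -0.18 and that of the regulators and partners -0.24. The medians of the 10 members, at -0.16, and of all genes, at -0.14, were also lower than the -0.07 of each with whole genes. No paired analysis was possible because each genotype has 1 library, and for the same reason no replicate could be left out. Counting error is widest for Bcl2l2 and Bad, with 228 and 397 estimated read pairs in the KO-labelled library and 253 and 237 in the wild-type-labelled library.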
